A study of Drosophila melanogaster with 18 samples.

Results

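The 10 genes Mhc, Mlc1, Mlc2, Tm1, Tm2, up, wupA, Act88F, sls and Obsc, which encode parts of the contractile apparatus of muscle, were followed across 18 arrays. They were chosen by name, and each was read from the probe set (a group of short oligonucleotides on the array) annotated to that gene alone, taking the one with the highest mean and giving any others beside it. Of the 10 genes, 7 had such a probe set, 10 probe sets in all, among 11982 genes with one on the array. Mhc, Tm1 and wupA had none in the annotation used here and are not analysed. All 7 passed the filter on dim genes, which left 8211 genes, but Act88F passed it only through its level in wildtype larvae.

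The groups were first-instar larvae of Drosophila melanogaster of 5 genotypes, collected about 48 hours after egg laying from flies kept at 25 °C. HP1a mutants (HP1a04/HP1a05), HP1a Pof double mutants (HP1a04 PofD119/HP1a05 PofD119), Setdb1 mutants (Setdb110.1/ Setdb110.1) and Su(var)3-9 mutants (alleles evo and 06 of that gene, 1 on each homologue) gave 3 arrays per genotype, lettered A to C. Wildtype gave 6 arrays, lettered A to F. The double mutants are called the HP1a Pof-labelled arrays below, because a probe set went against that label. HP1a is a heterochromatin protein, Setdb1 and Su(var)3-9 are histone H3 lysine methyltransferases, and Pof is a protein that coats chromosome 4. Each replicate was RNA of 200 pooled whole larvae. RNA of whole animals holds muscle and all other tissues, so fewer muscle cells and less RNA per muscle cell cannot be told apart here.

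Muscle contracts by the sliding of thick filaments, built of myosin heavy chain and its light chains, past thin filaments of actin. Tropomyosin and the troponin complex lie along the thin filament and let calcium switch contraction on. Thin filaments are anchored at the Z-disc and thick filaments at the M-line, and giant proteins related to vertebrate titin and obscurin link and space them. In a first-instar larva this apparatus serves the body-wall and gut muscles, whereas the flight muscles of the adult form later.

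Several measures that are not about muscle moved with genotype. The Pof probe set went against its label: it averaged 8.32 ± 0.29 (SD, n = 3) in the HP1a Pof-labelled arrays and 7.49 ± 0.09 (n = 6) in wildtype, so the Pof part of the label is not borne out by this probe set. Whether it lies inside the part of the gene that PofD119 affects was not determined, so its signal does not settle the genotype. The probe set of the HP1a gene itself fell by 0.72 in HP1a mutants and by 0.68 in the HP1a Pof-labelled arrays (limma adjusted p = 3e-07 and 4.61e-07). The 3' probe set of 18S ribosomal RNA averaged between 9.39 and 10.10 in the mutant groups and 12.30 in wildtype. Most markers of the epidermis and cuticle were higher in the mutants. Of 8 tested genes 6, 6, 6 and 7 were called higher in HP1a mutants, the HP1a Pof-labelled arrays, Setdb1 mutants and Su(var)3-9 mutants, and 1, 0, 0 and 1 lower. Of 11 midgut markers 9, 9, 8 and 8 were called lower and 2, 2, 2 and 1 higher. With each array centred at the median of its tested genes, 6 were lower in Su(var)3-9 mutants. The log2 of the summed signal of the 8 cuticle markers ran from 12.89 to 14.30 over the mutant arrays and from 11.75 to 12.14 over the wildtype arrays. For the 11 midgut markers it ran from 14.89 to 15.49 over the mutant arrays and from 15.78 to 15.87 over the wildtype arrays. Of 10 neuron markers 6, 7, 2 and 2 were called higher and 1, 1, 2 and 4 lower. Beside these marker counts, 23.5%, 25%, 17.3% and 16.3% of all genes were called higher and 35.6%, 35.8%, 35.2% and 47.6% lower. The 3' minus 5' signal over 3 transcripts, a sign of RNA quality, ran from 1.41 to 1.91 in HP1a mutants, 1.43 to 1.54 in the HP1a Pof-labelled arrays, 1.16 to 1.33 in Setdb1 mutants and 1.24 to 1.47 in Su(var)3-9 mutants, against 1.46 to 1.92 in wildtype. Su(var)3-9 array C stood apart: the median of its tested genes was 7.89, where the other 17 arrays lay between 8.10 and 8.29, and its array weight (lower for a noisier array) of 0.24 was the lowest of the 18. The interquartile range of the signal averaged 3.44 in Su(var)3-9 mutants and 3.71 in wildtype, and the mean of the fat body markers ran from 7.56 to 9.76 in Su(var)3-9 mutants and from 7.90 to 8.03 in wildtype. The part of these shifts in the muscle results was not tested.

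Muscle identity was plain on every array. The 6 genes other than Act88F read at a log2 signal of 8.56 or more on all 18 arrays, where the median of all 18952 values lay between 5.93 and 6.03 per array. The log2 of the summed signal of the 7 genes ran from 14.77 to 15.11 over the mutant arrays and from 14.69 to 14.96 over the wildtype arrays, so the groups overlapped.

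Among the contractile genes 1 to 4 of 7 were called in each comparison with wildtype. In HP1a mutants 1 of the 7 genes (Obsc) was higher and 3 (Mlc2, up and Act88F) were lower than in wildtype, at a limma adjusted p under 0.05. Over all genes 59.1% were called in that comparison, 23.5% higher and 35.6% lower. In the HP1a Pof-labelled arrays Act88F was the single gene called, against 60.8% of all genes, 25% higher and 35.8% lower. Setdb1 mutants gave the same count, Act88F alone, against 52.5% of all genes, 17.3% higher and 35.2% lower. In Su(var)3-9 mutants Mlc1 and Obsc were higher and sls and Act88F lower, against 63.9% of all genes, 16.3% higher and 47.6% lower. Without Act88F, which could pass the filter only by being high in wildtype, the counts were 3, 0, 0 and 3 of 6. The 4 comparisons share the 6 wildtype arrays.

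The median difference over the 7 genes was 0.03, 0.01, -0.02 and 0.12 in the order given, beside medians of -0.06, -0.05, -0.11 and -0.22 over all genes. Each of these medians is mutant minus wildtype on the log2 scale. Since the midpoint of all genes lay below 0, centring every array at its own median over the tested genes changed the calls: it gave 1 higher and 2 lower in HP1a mutants, 1 and 1 in the HP1a Pof-labelled arrays, 3 and 1 in Setdb1 mutants and 3 and 1 in Su(var)3-9 mutants. In Setdb1 mutants the genes added by centring were Mlc1 (0.15), Tm2 (0.21) and Obsc (0.29). Centring also moved the share of higher calls among all called genes to 49.2% for Setdb1 mutants (32.9% without it) and to 50.4% for Su(var)3-9 mutants (25.5% without it). Called differences in Setdb1 and Su(var)3-9 mutants, where that median passed 0.1, are therefore also given relative to it.

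**Figure D1:**
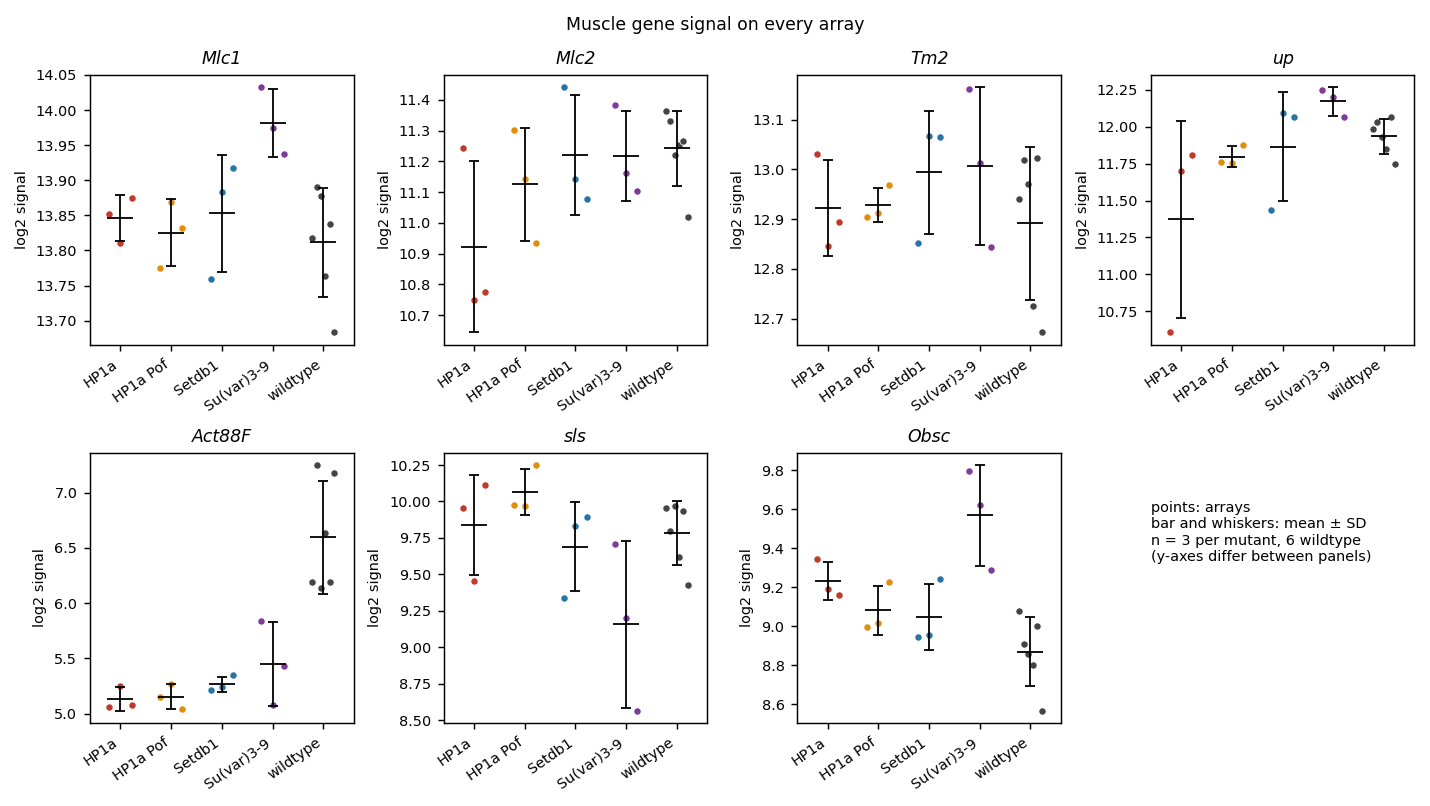
Log2 signal of the 7 contractile genes on every array, with 3 arrays per mutant group and 6 of wildtype, and bars for the mean ± SD; the y-axes differ between panels. Act88F is the 1 panel in which all 12 mutant arrays lie below all 6 wildtype arrays, and the low points of up (10.61, HP1a array A) and sls (8.56, Su(var)3-9 array C) stand apart from their groups.

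Mlc1 had the narrowest range of the 7 genes over the 18 arrays. It encodes the essential (alkali) light chain, which binds the neck of the myosin head, and lies on arm 3R. This gene read 13.85, 13.81 and 13.88 in HP1a mutants, 13.77, 13.87 and 13.83 in the HP1a Pof-labelled arrays and 13.76, 13.88 and 13.92 in Setdb1 mutants. In Su(var)3-9 mutants it read 14.03, 13.98 and 13.94, against a lowest, median and highest value of 13.68, 13.83 and 13.89 in wildtype. The 3 Su(var)3-9 arrays were the highest of all 18, and the other groups overlapped with wildtype. In Su(var)3-9 mutants Mlc1 rose by 0.17 ± 0.06 (SE; limma adjusted p = 0.0211), which is 0.39 above the median of all genes. With replicate letters as a block, the rise was 0.12 (adjusted p = 0.170), and without Su(var)3-9 array A it was 0.14 (adjusted p = 0.0781). Letters D to F occur in wildtype alone, so every blocked difference from wildtype rests on wildtype arrays A to C. The other 3 groups differed from wildtype by 0.01 to 0.04. Mlc1 lay near the top of the measured range, where the brightest probe set of an array read 14.28 or more.

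Mlc2 encodes the regulatory light chain, whose phosphorylation tunes force in insect muscle, and also lies on arm 3R. It read 11.24, 10.75 and 10.78 in HP1a mutants, 11.30, 11.14 and 10.93 in the HP1a Pof-labelled arrays, 11.44, 11.14 and 11.08 in Setdb1 mutants and 11.38, 11.16 and 11.11 in Su(var)3-9 mutants. The lowest, median and highest wildtype values were 11.02, 11.26 and 11.37. HP1a arrays B and C lay below every other array, while HP1a array A sat inside the wildtype range. Mlc2 fell by 0.32 ± 0.12 (SE) in HP1a mutants (limma adjusted p = 0.0334). The call was lost with centring (-0.25, adjusted p = 0.0749), without HP1a array B or C (-0.23 and -0.25) and without wildtype array A, B or E (-0.30, -0.30 and -0.32). In the other 3 groups it differed by -0.12, -0.02 and -0.03.

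Tropomyosin was not called in any group. Tm2 encodes a tropomyosin, the coiled coil that covers the myosin sites of actin at rest. It read 13.03, 12.85 and 12.89 in HP1a mutants, 12.91, 12.91 and 12.97 in the HP1a Pof-labelled arrays, 12.85, 13.07 and 13.06 in Setdb1 mutants and 13.16, 13.01 and 12.84 in Su(var)3-9 mutants. The lowest, median and highest wildtype values were 12.67, 12.96 and 13.02. All groups overlapped with wildtype, and the differences were 0.03, 0.04, 0.10 and 0.12, with 95% intervals from -0.17 to 0.23 in HP1a mutants and from -0.08 to 0.31 in Su(var)3-9 mutants. Only with centring were the differences in Setdb1 mutants (0.21) and Su(var)3-9 mutants (0.34) called.

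Troponin T varied more than the other thin-filament genes that were bright in all groups. The gene up (upheld), on the X chromosome, encodes troponin T, which ties the troponin complex to tropomyosin. It read 10.61, 11.70 and 11.81 in HP1a mutants, 11.76, 11.75 and 11.88 in the HP1a Pof-labelled arrays, 11.44, 12.09 and 12.07 in Setdb1 mutants and 12.25, 12.21 and 12.06 in Su(var)3-9 mutants. The lowest, median and highest wildtype values were 11.75, 11.96 and 12.07. HP1a array A lay far below the other 17 arrays, Setdb1 array A was low in its own group, and HP1a array C sat inside the wildtype range. In HP1a mutants up fell by 0.56 ± 0.20 (SE; limma adjusted p = 0.0261), but without array A the difference was -0.18 (adjusted p = 0.298). The other 3 groups differed from wildtype by -0.14, -0.07 and 0.24, none of them called. The call thus rested on 1 array.

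Act88F was lower in all 4 mutant groups, a difference that the filter favoured. It encodes the actin of the indirect flight muscles, which are built during metamorphosis. It read 5.06, 5.25 and 5.08 in HP1a mutants, 5.15, 5.27 and 5.04 in the HP1a Pof-labelled arrays, 5.22, 5.24 and 5.35 in Setdb1 mutants, while Su(var)3-9 arrays read 5.84, 5.08 and 5.43, against 6.14, 6.41 and 7.25 (lowest, median and highest) in wildtype. All 12 mutant arrays lay below all 6 wildtype arrays. Over all genes, 55% had arrays that did not overlap between HP1a mutants and wildtype, and 62.6%, 49.8% and 56.8% did so in the other 3 comparisons. Act88F differed by -1.46, -1.44, -1.33 and -1.15 (SE 0.23 each). Since it passed the filter through wildtype alone, these values are given as a description, and the calls counted above lend them no support. Relative to the median of all genes it was at -1.22 in Setdb1 mutants and at -0.92 in Su(var)3-9 mutants. All mutant values lay below the filter level of 6, near the median of all probe sets. No detection call was among the values used, so how far the mutant values lie above background is not known and the size of the difference is uncertain. Among wildtype arrays it split, with 7.25 and 7.18 on arrays B and F and 6.14 to 6.63 on the other 4.

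**Figure D2:**
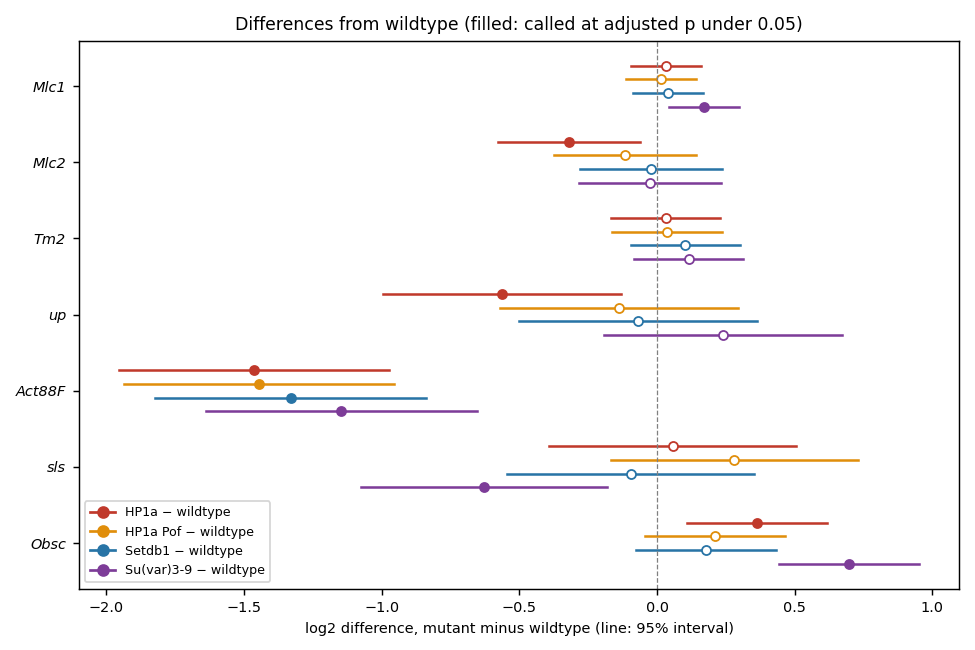
Log2 difference from wildtype for the 7 contractile genes in the 4 mutant groups, with 95% intervals, filled where limma called the gene. Act88F stands apart at -1.46 to -1.15, Mlc1 and Tm2 lie between 0.01 and 0.17, Mlc2 is called at -0.32 in HP1a mutants, and Obsc is positive in every group but called in HP1a and Su(var)3-9 mutants.

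Obsc was called higher in HP1a and Su(var)3-9 mutants. The gene, on arm 2R, encodes the fly obscurin, a giant kinase protein of the M-line that organises thick filaments. It read 9.34, 9.19 and 9.16 in HP1a mutants, 9.00, 9.02 and 9.23 in the HP1a Pof-labelled arrays, 8.94, 8.96 and 9.24 in Setdb1 mutants and 9.79, 9.62 and 9.29 in Su(var)3-9 mutants. The lowest, median and highest wildtype values were 8.57, 8.88 and 9.08. Every array of HP1a and Su(var)3-9 mutants was above the wildtype range, and the other groups overlapped with wildtype. Obsc rose by 0.70 ± 0.12 (SE) in Su(var)3-9 mutants (limma adjusted p = 0.000109), 0.92 above the median of all genes. In HP1a mutants it rose by 0.36 ± 0.12 (adjusted p = 0.0159). That call was lost with replicate letters blocked (0.28, adjusted p = 0.0967) and without HP1a array A (0.31, adjusted p = 0.0759). The HP1a Pof-labelled arrays and Setdb1 mutants differed by 0.21 and 0.18, called only with centring (0.29 in both). The second Obsc probe set did not pass the filter and read 4.66 to 5.13 over the mutant arrays and 4.98 to 5.31 over the wildtype arrays, both below the filter level. On it every array of HP1a mutants, the HP1a Pof-labelled arrays and Setdb1 mutants lay below the wildtype range, so the rise was seen with 1 probe set. With both averaged, the difference in HP1a mutants was -0.0067.

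The brightest probe set of sls was called lower in Su(var)3-9 mutants. The gene sls (sallimus), on arm 3L, encodes titin-like proteins, among them kettin, which span from the Z-disc toward the thick filament and arise by alternative splicing. This probe set read 9.95, 9.46 and 10.11 in HP1a mutants, 9.97, 9.97 and 10.25 in the HP1a Pof-labelled arrays, 9.34, 9.83 and 9.89 in Setdb1 mutants and 9.71, 9.20 and 8.56 in Su(var)3-9 mutants. The lowest, median and highest wildtype values were 9.43, 9.87 and 9.97. Su(var)3-9 arrays B and C lay below all wildtype arrays and array A inside their range. It fell by 0.63 ± 0.21 (SE) in Su(var)3-9 mutants (limma adjusted p = 0.0163), 0.41 below the median of all genes. The call was lost without Su(var)3-9 array C (-0.33, adjusted p = 0.173) and with centring (-0.41, adjusted p = 0.0825). The other 3 groups differed by 0.06, 0.28 and -0.10.

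The other probe sets of sls gave different answers in the same larvae. The third probe set read 8.07, 8.26 and 8.36 in HP1a mutants, 8.17, 7.97 and 8.26 in the HP1a Pof-labelled arrays, 8.20, 8.06 and 8.34 in Setdb1 mutants and 9.02, 8.88 and 8.73 in Su(var)3-9 mutants, against 7.11, 7.43 and 7.64 (lowest, median and highest) in wildtype. No mutant array reached down to the wildtype range, and the 3 Su(var)3-9 arrays were the highest. In a limma fit of 10054 probe sets it rose by 0.82, 0.73, 0.80 and 1.47 (each with an SE of 0.11) in HP1a mutants, the HP1a Pof-labelled arrays, Setdb1 mutants and Su(var)3-9 mutants, with adjusted p = 1.21e-05, 3.65e-05, 2.62e-05 and 2.74e-08. In those comparisons 58.3%, 59.8%, 51.7% and 63.7% of probe sets were called. Relative to the median of all probe sets it rose by 0.89 in Setdb1 mutants and by 1.67 in Su(var)3-9 mutants. The 4 calls were kept under each alternative run, including every fit without 1 array.

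The second sls probe set was called lower in 3 groups. It read 9.14, 9.23 and 9.18 in HP1a mutants, 9.26, 9.35 and 9.56 in the HP1a Pof-labelled arrays, 8.93, 9.12 and 9.12 in Setdb1 mutants and 9.32, 8.94 and 8.24 in Su(var)3-9 mutants, against 9.37, 9.58 and 9.89 in wildtype. All arrays of HP1a, Setdb1 and Su(var)3-9 mutants lay below the wildtype range. It fell by 0.77 ± 0.17 (SE) in Su(var)3-9 mutants (limma adjusted p = 0.000934) and by 0.55 in Setdb1 mutants (adjusted p = 0.0130), which is -0.57 and -0.45 relative to the median of all probe sets. Without Su(var)3-9 array C the difference in Su(var)3-9 mutants was -0.47 and still called. The call in Setdb1 mutants was lost with replicate letters blocked (-0.54) and without Setdb1 array A (-0.48, adjusted p = 0.0593). Its fall of 0.42 in HP1a mutants (adjusted p = 0.0434) was lost with the block (-0.42, adjusted p = 0.113) and in 7 of the 9 fits without 1 array, those without any HP1a array or without wildtype array A, C, D or E. The HP1a Pof-labelled arrays differed by -0.22 (adjusted p = 0.285).

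The probe sets of sls therefore changed unequally within the same arrays. The third minus the first probe set was -1.61 ± 0.36 (SD, n = 3) in HP1a mutants, -1.93 ± 0.11 in the HP1a Pof-labelled arrays, -1.49 ± 0.33 in Setdb1 mutants, and reached -0.28 ± 0.43 in Su(var)3-9 mutants, against -2.38 ± 0.28 (n = 6) in wildtype. No array of any mutant group overlapped with wildtype, whose values ran from -2.86 to -2.11. The second minus the first probe set differed from wildtype by -0.48, -0.50, -0.45 and -0.14. These differences between probe sets were formed after the values of each had been seen, so they are a description with no test. Where each probe set lies along the sls transcripts was not determined here.

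**Figure D3:**
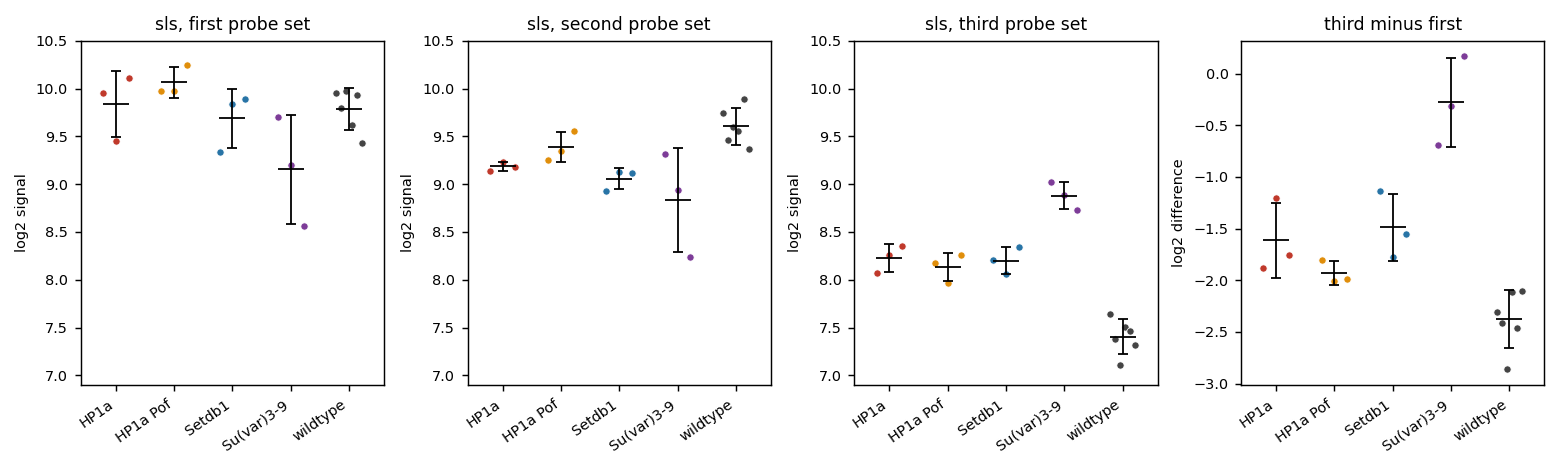
Log2 signal of the 3 sls probe sets on every array and, at the right, the third minus the first on the same array, with the mean ± SD (n = 3 per mutant group, 6 of wildtype). The third probe set lies at 7.97 to 9.02 in the mutants and at 7.11 to 7.64 in wildtype, while the second lies lower in HP1a, Setdb1 and Su(var)3-9 mutants than in wildtype.

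Between mutants, 0 to 2 of the 7 genes were called in each comparison. Between the HP1a Pof-labelled arrays and HP1a mutants, 0 of the 7 genes were called by limma, 0 also had an unadjusted p under 0.05, and 0.731% of all genes were called. The widest 95% interval there, for Act88F, ran from -0.55 to 0.59. Between HP1a and Setdb1 mutants 0 of 7 were called by limma, beside 18.5% of all genes, and 0 had an unadjusted p under 0.05. With replicate letters blocked Mlc2 was called lower in HP1a than in Setdb1 mutants (-0.30, adjusted p = 0.0379), as it was without HP1a array A (-0.46).

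Of the 7 genes 2 were called between HP1a and Su(var)3-9 mutants and 1 between Setdb1 and Su(var)3-9 mutants, beside 40.1% and 27.5% of all genes. Against Su(var)3-9 mutants, HP1a mutants had lower up (-0.80 ± 0.24, SE; limma adjusted p = 0.0143) and higher sls by its brightest probe set (0.68 ± 0.24, adjusted p = 0.0351), in a comparison that called 40.1% of all genes. Both calls depended on single arrays. The difference in up was -0.42 (adjusted p = 0.0538) without HP1a array A. That in sls was lost without HP1a array A or C (0.63 and 0.55) or Su(var)3-9 array B or C (0.71 and 0.39). Setdb1 mutants had lower Obsc than Su(var)3-9 mutants by 0.52 ± 0.14 (adjusted p = 0.0116), where 27.5% of all genes were called. The third sls probe set was lower by 0.65 in HP1a mutants and by 0.68 in Setdb1 mutants than in Su(var)3-9 mutants (limma adjusted p = 0.00143 and 0.00121, beside 39.2% and 26.6% of probe sets called). Over all genes the median difference was 0.14 for HP1a minus Su(var)3-9 mutants and 0.12 for Setdb1 minus Su(var)3-9 mutants. Relative to these, up was at -0.94, sls at 0.55 and Obsc at -0.64. Centring brought the share of higher calls among all called genes to 43.6% for HP1a against Su(var)3-9 mutants (70.3% without it) and to 45.0% for Setdb1 against Su(var)3-9 mutants (69.1% without it). It added Mlc1, Mlc2 and Obsc to the genes called lower in HP1a than in Su(var)3-9 mutants (-0.29, -0.45 and -0.49) and took the call of sls (0.53).

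In order of their means, Su(var)3-9 mutants had the highest Mlc1, Tm2, up and Obsc, and the lowest sls. Wildtype had the lowest Mlc1, Tm2 and Obsc and the highest Mlc2 and Act88F. Neighbours in these orders differed by less than their spread for Mlc1 below the Su(var)3-9 group, for all of Tm2, for Mlc2 above the HP1a group and for Act88F among the mutants. The same held for some neighbours of up, sls and Obsc. Examples are wildtype and Setdb1 mutants for up (11.94 and 11.87), HP1a mutants and wildtype for sls (9.84 and 9.78) and HP1a Pof-labelled arrays and Setdb1 mutants for Obsc (9.08 and 9.05). Over the 18 arrays the whole range was 0.35 for Mlc1, 0.49 for Tm2, 0.70 for Mlc2, 1.23 for Obsc, 1.65 for up, 1.68 for sls and 2.21 for Act88F.

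Within groups, some of these genes went up and down together from array to array. After subtraction of each group's mean, Pearson's r over the 18 arrays was 0.85 between Tm2 and Mlc1, 0.82 between Tm2 and sls, 0.80 between Tm2 and Obsc and 0.78 between sls and Obsc. Mlc2 and Act88F followed them little, with values from 0.07 to 0.34 for Mlc2 and from -0.27 to -0.12 for Act88F against those 4 genes, and up and Mlc2 ran in opposite directions (-0.62). Arrays share their RNA and their normalization, so these values describe the arrays and were not tested. Among genes outside the group, those most like the mean of the 7 by the same measure were heix (0.94), ctp (0.91), CG4239 (0.89), vers (0.89), Actn (0.89), Wdr33 (0.89), NfI (0.89), CG13484 (0.88), CG33521 (0.88) and su(Hw) (0.88). Actn, which encodes the Z-disc cross-linker alpha-actinin, was the only one of them in a muscle list. The median was 0.57 over 12 Z-disc and M-line genes, 0.55 over 9 excitation and receptor genes, 0.46 over 10 attachment genes, 0.43 over 6 other filament genes and 0.42 over 5 cytoplasmic actomyosin genes. It was 0.17 over all 8211 tested genes, 0.21 over 6 haemocyte, 0.10 over 10 neuron, 0.04 over 8 cuticle, -0.34 over 11 midgut and -0.47 over 3 fat body markers.

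Other filament genes moved modestly. Of 12 listed, 9 had a probe set and 6 were tested: 1 was higher and 2 lower in HP1a mutants, 1 and 1 in the HP1a Pof-labelled arrays, 2 and 1 in Setdb1 mutants and 3 and 1 in Su(var)3-9 mutants. The lower call in the first 3 groups was or included Act79B, which passed the filter through wildtype alone. Beside these counts, 23.5%, 25%, 17.3% and 16.3% of all genes were called higher and 35.6%, 35.8%, 35.2% and 47.6% lower. Mf, the gene of the thick-filament protein myofilin, rose by 0.30, 0.31, 0.39 and 0.37 (limma adjusted p = 0.00437, 0.00314, 0.000907 and 0.000906), though its second probe set was called only in Su(var)3-9 mutants (0.39). Prm, the gene of paramyosin, the core of insect thick filaments, rose by 0.38 in Su(var)3-9 mutants (adjusted p = 0.00345) and differed by 0.09 to 0.19 in the others, while its second probe set was called higher in all 4 groups (0.24, 0.22, 0.23 and 0.61). Act87E, an actin of larval muscle, rose by 0.36 in Setdb1 mutants and by 0.50 in Su(var)3-9 mutants (adjusted p = 0.00629 and 0.00036) and fell by 0.26 in HP1a mutants (0.0321), the fall being lost with centring (-0.19), without HP1a array B or C (-0.24 and -0.22) and without wildtype array B, C or E. The Act87E call in Setdb1 mutants was lost with only wildtype arrays A to C (0.29, limma adjusted p = 0.0585). In Setdb1 and Su(var)3-9 mutants, relative to all genes, Mf was at 0.49 and 0.59 and Act87E at 0.46 and 0.72, with Prm at 0.60 in Su(var)3-9 mutants. The brightest probe set of tmod, the gene of the thin-filament cap tropomodulin, fell by 0.21 in Su(var)3-9 mutants (limma adjusted p = 0.0459). That call was lost with centring (0.01), without Su(var)3-9 array B or C (-0.23 and -0.11) and without any of wildtype arrays A to E. The second tmod probe set went the other way, at 0.28, 0.53, 0.75 and 0.44 in the 4 groups, called in all but HP1a mutants. In Su(var)3-9 mutants its limma adjusted p was 0.00675, and with the probe sets averaged tmod was at 0.12, not called. The 7 genes read here are not a sample of all contractile genes, and this list was also chosen with results known.

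Act79B, an actin of adult muscles, also read low in the mutants. Its signal was 5.34 to 5.45 in HP1a mutants, 5.32 to 5.52 in the HP1a Pof-labelled arrays, 5.35 to 5.54 in Setdb1 mutants and 5.58 to 5.79 in Su(var)3-9 mutants, against 5.67 to 6.51 in wildtype. It differed by -0.62, -0.59, -0.55 and -0.31 in the 4 groups, with the last overlapping wildtype. Like Act88F it passed the filter through wildtype alone, so these values are a description.

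Genes of the Z-disc, M-line and elastic filaments were called in both directions. Of 14 listed, 13 had a probe set and 12 were tested: 5 were higher and 1 lower in HP1a mutants, 3 and 1 in the HP1a Pof-labelled arrays, 3 and 0 in Setdb1 mutants and 3 and 5 in Su(var)3-9 mutants. Without HP1a array A and Su(var)3-9 array C the count in Su(var)3-9 mutants was 4 and 1, as it was with centring. Centring gave 7 and 1 in the HP1a Pof-labelled arrays. Without centring, 23.5%, 25%, 17.3% and 16.3% of all genes were called higher in the 4 groups and 35.6%, 35.8%, 35.2% and 47.6% lower. Mlp60A, the gene of a small muscle LIM protein, read 13.61, 13.51 and 13.45 in HP1a mutants, 13.42, 13.44 and 13.56 in the HP1a Pof-labelled arrays, 13.57, 13.65 and 13.48 in Setdb1 mutants and 12.13, 11.25 and 10.37 in Su(var)3-9 mutants, against 11.53, 11.85 and 12.29 (lowest, median and highest) in wildtype. The first 3 groups lay above every wildtype array and the Su(var)3-9 arrays scattered over and below the wildtype range.

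Mlp60A thus rose by 1.65, 1.60 and 1.69 (each with an SE of 0.26; limma adjusted p = 4.46e-05, 5.41e-05 and 5.27e-05). Its fall of 0.62 in Su(var)3-9 mutants (adjusted p = 0.0426) was lost with centring (-0.40), with replicate letters blocked (-0.66, adjusted p = 0.0668) and in 6 of the 9 fits without 1 array, among them the fit without Su(var)3-9 array C (-0.18). As with sls, a second probe set disagreed, at -0.39, -0.30, 0.02 and 0.04 in the 4 groups, the first 2 called (adjusted p = 0.00342 and 0.0167). With the probe sets averaged, Mlp60A was still higher in the first 3 groups, by 0.40, 0.37 and 0.58 (adjusted p = 0.000731, 0.00127 and 3.35e-05), and at -0.18 in Su(var)3-9 mutants. Mlp84B, the gene of another muscle LIM protein, rose by 0.38 in Setdb1 mutants and fell by 0.43 in Su(var)3-9 mutants (limma adjusted p = 0.0395 and 0.0193). Both Mlp84B calls were lost with replicate letters blocked (0.37 and -0.44), the first also without Setdb1 array B or C or wildtype array B or F, and the second also without Su(var)3-9 array C (-0.23) and with centring (-0.20).

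Among the very large proteins, Msp300, the gene of a nesprin-like protein that anchors muscle nuclei, rose by 0.84 in HP1a mutants and 0.81 in the HP1a Pof-labelled arrays (limma adjusted p = 0.000126 and 0.000157) and was at -0.06 and 0.26 in the other groups. Those values are of the brightest Msp300 probe set. The third probe set of Msp300 was called higher in all 4 groups (0.79, 0.66, 0.67 and 0.75). In Su(var)3-9 mutants the probe sets ranked 2, 4 and 5 by mean signal were also called higher (0.53, 0.49 and 0.30). Of the tested Msp300 probe sets, the brightest was thus the only one not called in that group. In Setdb1 mutants the probe sets of ranks 2, 4 and 5 were at 0.22, 0.20 and 0.29, not called. The gene bt, which encodes the titin-like projectin and lies on chromosome 4, rose by 0.45 and 0.54 in HP1a mutants and the HP1a Pof-labelled arrays (adjusted p = 0.0068 and 0.00199). Its rise of 0.41 in Su(var)3-9 mutants (0.0111) was lost with replicate letters blocked (0.30, adjusted p = 0.0538) and without Su(var)3-9 array A (0.28). The small heat shock gene l(2)efl fell by 0.35 in HP1a mutants and by 0.63 in the HP1a Pof-labelled arrays (0.00908 and 8.59e-05). Zasp52, the gene of a PDZ-LIM protein of the Z-disc, rose by 0.44 in HP1a mutants and 0.45 in Setdb1 mutants (adjusted p = 0.00561 and 0.00563) and fell by 0.71 in Su(var)3-9 mutants (0.000104). Its Su(var)3-9 arrays read 9.68 to 10.24 and its wildtype arrays 10.45 to 10.87, without overlap. Set against all genes, Zasp52 was at 0.56 in Setdb1 and -0.49 in Su(var)3-9 mutants, Mlp60A at 1.80 in Setdb1 mutants, Mlp84B at 0.49 and -0.21, and bt at 0.64 in Su(var)3-9 mutants.

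**Figure D4:**
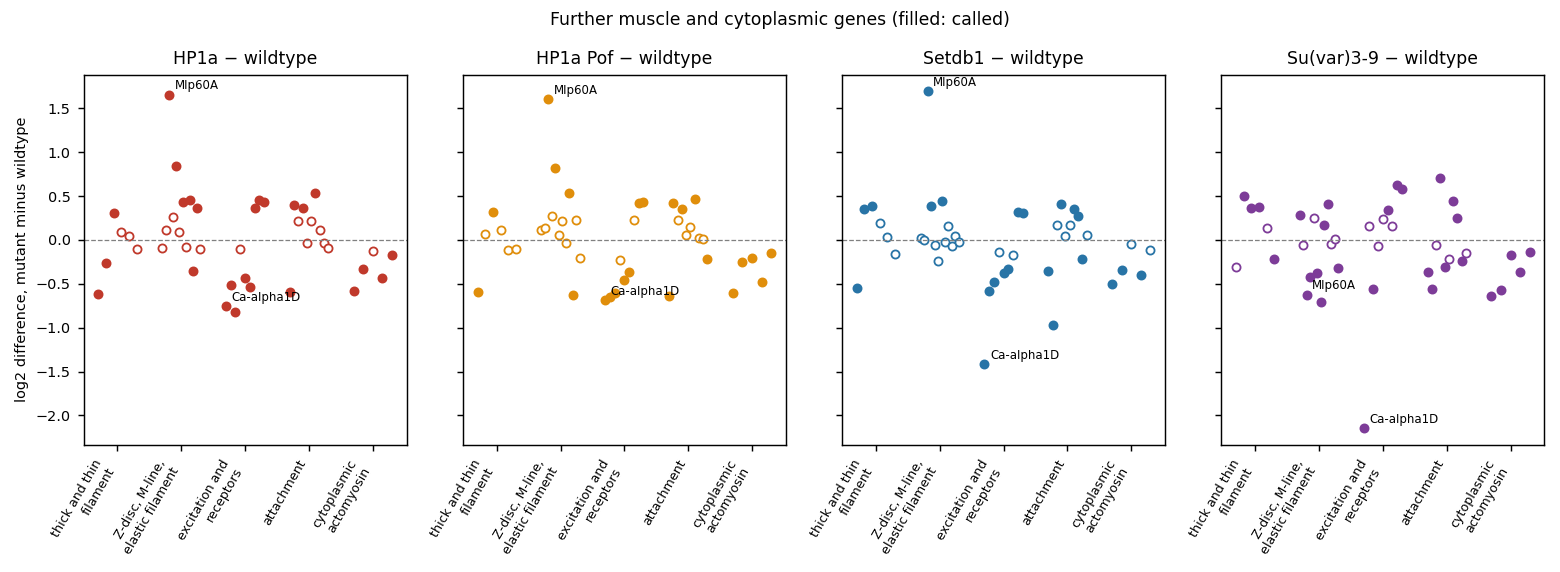
Log2 difference from wildtype of further muscle genes and of cytoplasmic actomyosin genes in the 4 mutant groups, 1 point per gene, filled where limma called it. Mlp60A lies at 1.60 to 1.69 in 3 groups and at -0.62 in Su(var)3-9 mutants, and Ca-alpha1D is lower in all 4, down to -2.14.

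Genes that couple excitation to contraction were lower in part. Of 12 listed, 9 had a probe set and all 9 were tested: 3 were higher and 5 lower in HP1a mutants, 2 and 5 in the HP1a Pof-labelled arrays, 2 and 5 in Setdb1 mutants and 3 and 2 in Su(var)3-9 mutants (6 and 2 with centring). The shares of all genes called without centring were 23.5%, 25%, 17.3% and 16.3% higher and 35.6%, 35.8%, 35.2% and 47.6% lower. Ca-alpha1D, the gene of the L-type calcium channel, read 7.41, 7.07 and 6.95 in HP1a mutants, 7.07, 7.23 and 7.32 in the HP1a Pof-labelled arrays, 6.62, 6.36 and 6.46 in Setdb1 mutants and 6.49, 5.64 and 5.13 in Su(var)3-9 mutants, against 7.72, 7.92 and 8.01 in wildtype. No mutant array reached the wildtype range. It fell in all 4 groups (-0.75, -0.69, -1.42 and -2.14; limma adjusted p = 0.00385, 0.00676, 2.59e-05 and 2.42e-07). Neurons also express this channel, and of the 10 neuron markers 6, 7, 2 and 2 were called higher and 1, 1, 2 and 4 lower in the same 4 groups; their part in this result was not tested.

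Of the glutamate receptor subunits of the neuromuscular junction, GluRIIA, GluRIIB and GluRIIE were called lower in at least 3 groups each. GluRIIB fell by 0.83, 0.60, 0.48 and 0.56 (limma adjusted p = 4.48e-05, 0.000685, 0.00488 and 0.00129). GluRIIA fell by 0.51, 0.65 and 0.58 in the first 3 groups (0.000352, 3.42e-05 and 0.000154) and was at 0.16 in Su(var)3-9 mutants. GluRIIE fell by 0.43, 0.45 and 0.37 in the first 3 groups (limma adjusted p = 0.0103, 0.0072 and 0.0248) and was at 0.24 in Su(var)3-9 mutants. The GluRIIE call was lost in the HP1a Pof-labelled arrays without their array B (-0.34), and in Setdb1 mutants with centring (-0.26), without Setdb1 array B or C (-0.31 and -0.38) and without wildtype array C or E (-0.32 and -0.33). SERCA, the gene of the pump that returns calcium to the sarcoplasmic reticulum, rose by 0.46, 0.42, 0.32 and 0.63 (0.000135, 0.000262, 0.00301 and 5.71e-06). Its second probe set was called higher in all but Setdb1 mutants, where it was at 0.06. The third SERCA probe set was at 0.22, 0.18, -0.28 and 0.46, called only in Su(var)3-9 mutants. The gene jp, of junctophilin, which joins the surface and reticulum membranes, differed by 0.43, 0.43, 0.30 and 0.58. No wildtype or Setdb1 array of jp reached the filter level of 6, so it passed the filter through the other 3 groups, and these values are a description although jp is in the counts of higher calls. Mp20, the gene of a calponin-like muscle protein, fell by 0.54, 0.36 and 0.33 in the first 3 groups and rose by 0.34 in Su(var)3-9 mutants. In Setdb1 and Su(var)3-9 mutants, counted from the median of all genes, Ca-alpha1D was at -1.31 and -1.92, GluRIIB at -0.38 and -0.34, SERCA at 0.43 and 0.85 and Mp20 at -0.22 and 0.56, while GluRIIA and GluRIIE were at -0.47 and -0.27 in Setdb1 mutants.

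Attachment genes split. Of 11 listed, all had a probe set and 10 were tested: 3 were higher and 1 lower in HP1a mutants, 3 and 2 in the HP1a Pof-labelled arrays, 3 and 3 in Setdb1 mutants and 3 and 4 in Su(var)3-9 mutants. Among all genes 23.5%, 25%, 17.3% and 16.3% were called higher and 35.6%, 35.8%, 35.2% and 47.6% lower, without centring. Centring gave 5 and 1, 4 and 1, 3 and 2, and 3 and 2 attachment genes higher and lower in the same order. Without HP1a array A and Su(var)3-9 array C these counts were 2 and 1 in HP1a mutants and 3 and 2 in Su(var)3-9 mutants. The integrin beta subunit gene mys rose by 0.53, 0.46, 0.36 and 0.45 (limma adjusted p = 0.000156, 0.00048, 0.0047 and 0.000637), and its second probe set by 0.60, 0.56, 0.41 and 0.46. The integrin alpha subunit gene if rose by 0.37, 0.35, 0.42 and 0.70 (0.0159, 0.0195, 0.00884 and 0.000108). With replicate letters blocked the difference for if in HP1a and Setdb1 mutants was 0.28 and 0.33 and the calls were lost, as they were without HP1a array A or C, without HP1a Pof array A or C, or without Setdb1 array C in the group concerned. Ilk, the gene of integrin-linked kinase, read 9.48 to 9.90 over the mutant arrays and 10.10 to 10.22 over the wildtype arrays, and fell by 0.59, 0.64, 0.35 and 0.37 (2.9e-07, 9.46e-08, 8.31e-05 and 3.43e-05). Pax, the gene of paxillin, rose by 0.40 and 0.42 in HP1a mutants and the HP1a Pof-labelled arrays and fell by 0.96 and 0.56 in Setdb1 and Su(var)3-9 mutants (0.00337, 0.00187, 1.57e-06 and 0.00019). Against the shift of all genes in Setdb1 and Su(var)3-9 mutants, mys was at 0.46 and 0.67, if at 0.52 and 0.93, Ilk at -0.25 and -0.15 and Pax at -0.86 and -0.34.

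Of the 10 muscle transcription regulators listed, Lmpt, a LIM-domain gene, was the only one tested. It rose by 0.64, 0.68 and 0.58 in the first 3 groups (limma adjusted p = 0.000106, 5.52e-05 and 0.000355) and was at -0.01 in Su(var)3-9 mutants, with the value in Setdb1 mutants at 0.69 relative to all genes. Its second probe set rose in all 4 groups (0.62, 0.68, 1.22 and 1.26), so the 2 probe sets differ in Su(var)3-9 mutants. Of 9 cytoplasmic actomyosin genes, which serve all cells, 5 were tested. Over all genes 35.6%, 35.8%, 35.2% and 47.6% were called lower, and of these 5 genes 4, 5, 3 and 5 were lower, with 0 higher. Among these Mlc-c, the essential light chain of non-muscle myosin, fell by 0.58, 0.60, 0.50 and 0.63 (1.07e-05, 6.89e-06, 7.54e-05 and 4.49e-06), where the muscle light chain Mlc1 differed by 0.03, 0.01, 0.04 and 0.17. Relative to all genes, Mlc-c was at -0.39 in Setdb1 and -0.41 in Su(var)3-9 mutants. The profilin gene chic fell by 0.33, 0.25, 0.34 and 0.57 (limma adjusted p = 0.00536, 0.0235, 0.00462 and 5.14e-05), and relative to all genes was at -0.24 and -0.35 in the last 2. Of the capping protein genes, which block the fast-growing end of actin filaments, cpb fell by 0.43, 0.48, 0.40 and 0.37 (limma adjusted p = 0.00045, 0.000166, 0.00101 and 0.00148), at -0.30 and -0.15 relative to all genes in the last 2, and cpa by 0.21 in the HP1a Pof-labelled arrays and 0.18 in Su(var)3-9 mutants (0.0192 and 0.0427). The cofilin gene tsr fell by 0.17 in HP1a mutants, 0.15 in the HP1a Pof-labelled arrays and 0.13 in Su(var)3-9 mutants (limma adjusted p = 0.00784, 0.0131 and 0.0251). In Su(var)3-9 mutants the falls of cpa and tsr were smaller than that of the median of all genes (-0.22). Centring took the calls of chic in the HP1a Pof-labelled arrays (-0.17) and of cpb in Su(var)3-9 mutants (-0.14). It also took those of cpa in both of these groups (-0.13 and 0.05), and of tsr in both and in HP1a mutants (-0.10 in the last). The chic call in the HP1a Pof-labelled arrays was also lost without their array A or C, that of cpa there without array C, and that of cpa in Su(var)3-9 mutants without array C or any of wildtype arrays A to E. With centring the counts of this list were 3, 2, 3 and 2 lower.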

How the data were processed

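RNA of whole first-instar larvae was hybridised to 18 one-colour Affymetrix arrays, each with 18952 values. The authors deposited log2 signals, made with RMA per the submitters' processing notes, without a version or settings in the sources read here. Intensities before RMA and detection calls were not used here, and the number of arrays limits the precision.

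Probe sets were named with the platform annotation, and names were updated through the reference table: 13647 named 1 gene, 402 several, 4720 none and 183 were controls, and 13544 matched the reference. Of 11982 genes 1094 had several probe sets, and the one with the highest mean was kept. Genes with at least 3 arrays at a log2 value of 6 were tested (8211). The 5 groups entered 1 linear model in limma 3.58.1 (R 4.3.3), which left 13 residual degrees of freedom. P-values were adjusted by Benjamini-Hochberg over all tested genes, and a gene was called below 0.05. Tables were made with pandas 2.3.3. The limma procedure was tested on simulated data. The labels call the replicates biological, and p-values measure the spread between these pooled samples.

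The 10 genes and all lists were chosen with earlier results of these data known. By rule the text names those 10, up to 4 genes of each list with the largest called differences per comparison with wildtype, and the 10 genes most like the mean of the group. The fit of all probe sets, the differences between sls probe sets and the counts without Act88F or without 2 arrays were added after seeing the data. The labels do not say whether letters mark shared batches. Same-letter deviations correlated at 0.334, 0.270, 0.105, 0.423 and 0.271 or more for wildtype set against HP1a, Setdb1 and Su(var)3-9 mutants, then HP1a Pof-labelled arrays against HP1a, then HP1a against Setdb1, so there the blocked value is given where it changes a call. In the other 3 the lowest was 0.0784, -0.05 and -0.01. Alternatives were other filters, the mean of probe sets, centring, array weights, the replicate block, fewer arrays and each array left out.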

Additional observations from a re-analysis of the deposited data

Results flagged for a closer look

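Of the contrasts between mutant groups, 5 were called and are repeated as values because the groups differed from wildtype in different directions or by different amounts. The gene up was at -0.80 in HP1a minus Su(var)3-9 mutants, and the brightest sls probe set at 0.68 in the same contrast. Obsc was at -0.52 in Setdb1 minus Su(var)3-9 mutants. The third sls probe set was at -0.65 in HP1a minus Su(var)3-9 mutants and at -0.68 in Setdb1 minus Su(var)3-9 mutants. In the contrasts of sls, the brightest probe set and the third had opposite signs for HP1a minus Su(var)3-9 mutants. Among the 6 wildtype arrays, 0 of the 10 probe sets had an array beyond Dixon's critical value.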

How the results depend on the processing

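Of 867 alternative values for single genes and probe sets, 751 kept their direction and their side of the threshold, 44 lost a call, 23 gained one and 49 turned their sign, most of the last near 0; the causes were not tested. In comparisons with wildtype, 4, 1, 1 and 4 genes were called in HP1a mutants, the HP1a Pof-labelled arrays, Setdb1 mutants and Su(var)3-9 mutants. Only wildtype arrays A to C gave 2 in HP1a mutants. A filter at log2 8, or leaving out Act88F, gave 0 and 0 in the HP1a Pof-labelled arrays and Setdb1 mutants, since Act88F is then not tested, and centring gave 2 and 4. For HP1a against Su(var)3-9 mutants, 2 genes were called, 4 with centring or array weights and 0 with only those 2 groups in the fit. For Setdb1 against Su(var)3-9 mutants, 1 was called, 2 with centring and 0 with only those groups. For HP1a against Setdb1 mutants, 0 were called, and 1 without HP1a array A and Su(var)3-9 array C. With 1 array left out, the counts ran from 2 to 4 in HP1a mutants, 3 to 4 in Su(var)3-9 mutants, 0 to 1 for HP1a against Setdb1, 1 to 2 for HP1a against Su(var)3-9 and 1 to 2 for Setdb1 against Su(var)3-9 mutants, and stayed at 1 in the other comparisons with wildtype. Signs turned with the mean of probe sets for Obsc (-0.0067 in HP1a mutants, where it was called otherwise, -0.081 in the HP1a Pof-labelled arrays and -0.057 in Setdb1 mutants) and sls (0.051 in Setdb1 and 0.025 in Su(var)3-9 mutants, also called otherwise). With array weights they turned for Tm2 in HP1a mutants (-0.027) and for Mlc1 (-0.0067) and Tm2 (-0.014) in the HP1a Pof-labelled arrays. With centring they turned in Setdb1 mutants for Mlc2 (0.090), up (0.042) and sls (0.015), and in Su(var)3-9 mutants for Mlc2 (0.20). Without HP1a array A and Su(var)3-9 array C they turned for Tm2 in HP1a mutants (-0.023), Mlc2 in Su(var)3-9 mutants (0.029) and Act88F between HP1a Pof-labelled arrays and HP1a mutants (-0.015). With 1 array left out, differences from wildtype ran from -0.023 to 0.070 for Tm2 and from -0.080 to 0.25 for sls in HP1a mutants, from -0.012 to 0.0391 for Mlc1 and -0.0076 to 0.063 for Tm2 in the HP1a Pof-labelled arrays, from -0.18 to 0.15 for up, -0.20 to 0.080 for sls and -0.13 to 0.051 for Mlc2 in Setdb1 mutants, and from -0.11 to 0.029 for Mlc2 in Su(var)3-9 mutants. Between the HP1a Pof-labelled arrays and HP1a mutants they ran from -0.037 to 0.081 for Act88F, -0.034 to 0.059 for Tm2 and -0.042 to 0.0051 for Mlc1.

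With the replicate block (and likewise with wildtype arrays A to C only) signs turned in HP1a mutants for Mlc1 (-0.016), Tm2 (-0.053) and sls (-0.066), in the HP1a Pof-labelled arrays for Mlc1 (-0.037) and Tm2 (-0.049), and in Setdb1 mutants for Mlc1 (-0.0092). The block gave 1 call for HP1a against Setdb1 mutants. In the 5 comparisons set apart above by their same-letter correlations, it changed no call of the 7 genes beyond those given with the results. Those correlations do not show that letters mark pairs. For HP1a against Su(var)3-9 mutants, which is not among those 5, the block gave Mlc2 a call (-0.29) and took that of sls (0.68). The lack of detection calls limits the size given for Act88F.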

Other observations

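Of the other filament genes listed, 3 had a probe set but did not pass the filter, so they have no test. Their values had been seen when they were named. The gene fln, of the flight-muscle protein flightin, had medians of 4.61, 4.62, 4.86 and 4.77 in HP1a mutants, the HP1a Pof-labelled arrays, Setdb1 mutants and Su(var)3-9 mutants, against 5.63 in wildtype, where it ran from 5.05 to 6.65. TpnC41C, a troponin C gene, had medians of 4.41, 4.19, 5.53 and 4.29, against 5.98 in wildtype. TpnC4, another troponin C gene, had medians of 3.74, 3.65, 3.73 and 3.87, against 4.09 in wildtype, and all groups overlapped with wildtype.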
